A study of Mus musculus with 9 samples.

Results

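Neurog1, Neurog2, Neurod1, Neurod4, Nhlh1, Nhlh2, Ebf1, Ebf2 and Ebf3 encode helix-loop-helix transcription factors that drive neural progenitors towards neurons. These 9 genes were chosen with earlier results of these data known. They were taken by name from a table of 24100 genes, and all 9 were found by Entrez ID. After a filter on low counts 8 of them were among the 14761 genes that could be tested, and Neurog1 was not. Poly(A) RNA was sequenced from mouse cells labelled as neural and derived from embryonic stem cells, in 3 groups of 3 libraries. All groups carried a stable PiggyBac transgene for histone H4 with an HA tag. The tagged H4 was wild type in the H4WT group (PiggyBAC_H4WT_3HA), had lysine 91 changed to arginine in H4K91R (PiggyBAC_H4K91R_3HA) and to glutamine in H4K91Q (PiggyBAC_H4K91Q_3HA). The labels of all groups also carry 4Ddif, a term they do not explain. The study asked which genes change with the H4 mutants. The labels do not give the promoter of the transgene, its level beside the cells' own H4, whether a line is 1 clone, or whether replicates are separate differentiations. The p-values thus measure only the spread between these libraries.

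Proneural factors are basic helix-loop-helix (bHLH) proteins that pair with E proteins and bind E-boxes, short DNA sites of the form CANNTG. The neurogenins (Neurog1, Neurog2) act first, in dividing progenitors, and raise Notch ligands such as Dll1 along with later factors, among them the NeuroD and Nhlh genes, which act as cells leave the cycle and differentiate. Hes factors downstream of Notch repress proneural genes, and Id proteins bind E proteins and keep them from DNA. The Ebf factors are atypical members: they have a helix-loop-helix dimerisation domain but no basic region, and bind DNA through a domain of their own. They act downstream of neurogenins in neurons and also have roles outside the nervous system, Ebf1 in B cells and Ebf2 in fat cell precursors.

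RefSeq promoter windows (GRCm38.p6, the 250 bases before an annotated start) were at hand for 8 of the 9 genes, 10 windows in all, and were searched for E-boxes because these are the sites that proneural factors bind. The pair of Nhlh genes is shown with Neurod4, which rose like them, and Neurod1, which was not called (values below). The sequences run 5′ to 3′ on the strand of the gene, capitals mark each CANNTG match, and only bases outside any GENCODE vM21 exon are printed. They lie at chr1:172057597-172057846 (minus strand, Nhlh1), chr3:102009895-102010075 (plus strand, Nhlh2), chr10:130280255-130280504 (minus strand, Neurod4) and chr2:79456786-79456886 (minus strand, Neurod1).
Nhlh1: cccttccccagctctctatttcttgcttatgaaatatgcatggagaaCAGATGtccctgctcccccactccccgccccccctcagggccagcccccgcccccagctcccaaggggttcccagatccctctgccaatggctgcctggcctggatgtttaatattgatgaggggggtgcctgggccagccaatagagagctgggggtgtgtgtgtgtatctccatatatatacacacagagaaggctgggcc
Nhlh2: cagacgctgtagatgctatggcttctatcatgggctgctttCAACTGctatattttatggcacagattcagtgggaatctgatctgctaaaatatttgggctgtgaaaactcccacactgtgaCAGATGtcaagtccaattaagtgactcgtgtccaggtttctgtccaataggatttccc
Neurod4: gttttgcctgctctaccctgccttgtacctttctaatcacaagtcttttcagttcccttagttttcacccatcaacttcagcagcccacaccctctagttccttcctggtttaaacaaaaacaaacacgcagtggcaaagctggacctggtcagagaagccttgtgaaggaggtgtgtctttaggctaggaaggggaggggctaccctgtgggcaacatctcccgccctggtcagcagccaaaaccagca
Neurod1: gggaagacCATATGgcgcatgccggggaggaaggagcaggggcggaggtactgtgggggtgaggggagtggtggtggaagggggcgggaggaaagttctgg
The Nhlh1 and Nhlh2 windows each held 1 CAGATG, at 197 and 121 bases before the start, and Nhlh2 held a CAACTG as well. Neurod1 held only a CATATG and neither Neurod4 window held an E-box. Over the 10 windows of the 8 genes, 4 windows (Neurod1, Nhlh1, Nhlh2 and 1 of 2 for Ebf1) held any CANNTG, against 66.2% of all 32851 windows of that length. The form CAGATG, on either strand, was in 2 of the 10 windows and in 14.4% of all windows. CAGCTG and CACGTG, also forms of CANNTG, were in 0 of the 10 windows (13% and 6.02% of all). CACNAG, searched on both strands as a site type bound by Hes factors, was in 4 (36.7% of all). These were the windows of Nhlh2 and Ebf3 and both windows of Neurod4, which overlap and share a match. TTCCCA, on either strand, the core bound by the Notch effector Rbpj, was in 3 (21.6%). The paired Ebf half-sites TCCC and GGGA, 2 bases apart, were in 0 of the 10 and in 0.779% of all windows. A match describes letters in the window and does not show binding.

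Total counts per library ran from 8970553 to 28887501, so the same share of RNA is measured with more counts in some libraries than in others. The H4WT group held both the shallowest library (replicate 3) and the deepest (replicate 2). Levels are given as CPM, counts per 1000000 counts of the library after TMM scaling, which corrects for differences in composition between libraries. A gene with no count in a library may still stand at up to 0.111 to 0.367 CPM, depending on the library (3 counts, counting error only). Across genes, which are not independent replicates, log2 CPM correlated at 0.987 to 0.993 between libraries of a group and at 0.942 to 0.986 between groups.

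In H4K91R, 7 of the 8 tested genes rose and 0 fell relative to H4WT, while 20.9% of all 14761 tested genes rose and 25.1% fell (edgeR quasi-likelihood test, Benjamini-Hochberg adjusted p below 0.05 over all tested genes). In H4K91Q the same 7 genes rose and 0 fell, against 22.5% of all tested genes that rose and 23.8% that fell. The increase was called and at least 2-fold for 6 of them in each mutant, all but Ebf2, as for 9.18% of all tested genes in H4K91R and 8.38% in H4K91Q. The joint test over the 3 groups called the same 7 genes and 50.6% of all tested genes. Both comparisons use the same 3 H4WT libraries. The gene that was not called in either was Neurod1. Neurog2 and Nhlh1 reached the filter, 10 counts in a library of median size, only through the mutants' libraries, so the counts of risen genes among the tested ones are a description. With library size in place of TMM scaling 34.1% and 37.6% of all genes rose, the median over all genes shifted by 0.18 and 0.17 on the log2 scale, and the calls of these 8 genes against H4WT stayed as they were. In bulk RNA, more cells that express a gene and more RNA per cell cannot be told apart.

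**Figure D1:**
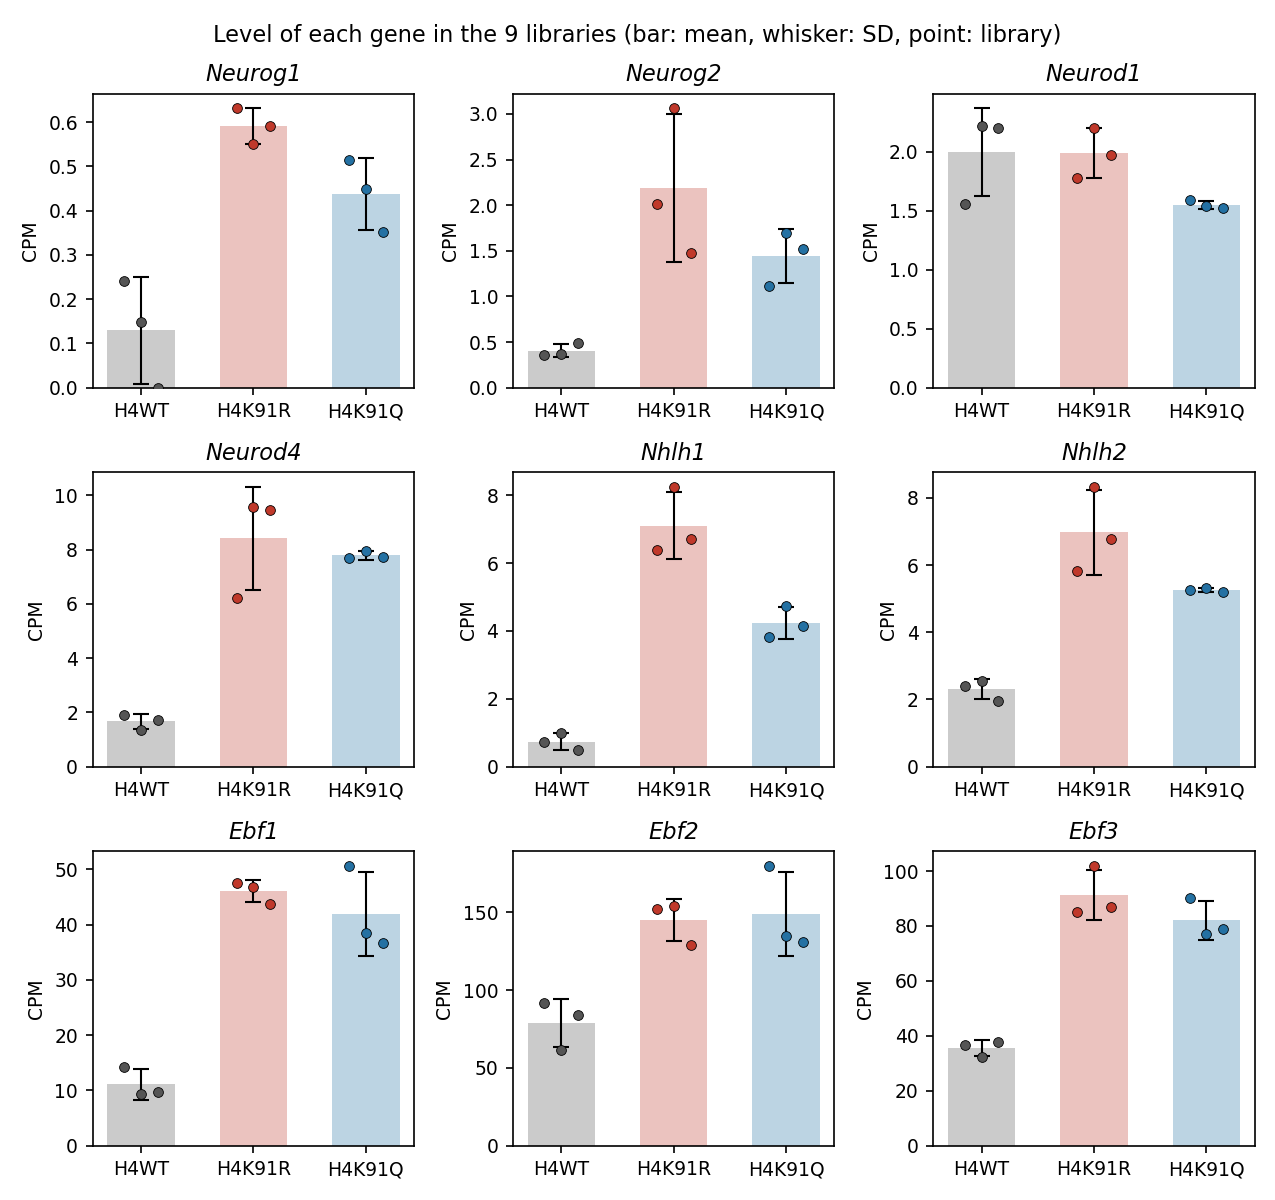
CPM of the 9 genes (vertical axis, from 0, a separate scale per gene) in H4WT, H4K91R and H4K91Q. Points are libraries, bars are means and whiskers are SD over 3 libraries. For every gene but Neurod1 the points of both mutants lie above all H4WT points.

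Of the neurogenins, Neurog2 (Entrez 11924, chromosome 3, 127632733 to 127635636), which specifies cortical, spinal and sensory neurons, stood at 0.361, 0.37 and 0.49 CPM in H4WT replicates 1, 2 and 3. It stood at 2.01, 3.07 and 1.48 CPM in H4K91R and at 1.11, 1.69 and 1.52 CPM in H4K91Q. Each mutant library was above each H4WT library, and the mutants overlapped. Neurog2 rose by 2.46 ± 0.38 on the log2 scale in H4K91R (SE, n = 3 libraries per group, edgeR adjusted p = 0.000171) and by 1.84 ± 0.39 in H4K91Q (adjusted p = 0.00185). These values rest on few reads, 17 counts over the 3 H4WT libraries, 89 in H4K91R and 86 in H4K91Q.

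Neurog1 (Entrez 18014, chromosome 13, 56250478 to 56252180), the neurogenin of cranial sensory and olfactory neurons, had 2, 4 and 0 counts in H4WT, 11, 7 and 6 in H4K91R and 12, 9 and 6 in H4K91Q. On the CPM scale it ran from 0 to 0.24 in H4WT, from 0.551 to 0.633 in H4K91R and from 0.352 to 0.515 in H4K91Q. The H4K91R and H4K91Q libraries all lay above the H4WT values, but the count of 0 in H4WT replicate 3 allows up to 0.367 CPM, more than the lowest H4K91Q value. Fitted without the filter on low counts, Neurog1 had a log2 change of 2.05 in H4K91R (edgeR adjusted p = 0.0157 over 20103 genes) and of 1.64 in H4K91Q (adjusted p = 0.0517).

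The NeuroD genes went different ways. Neurod4 (Entrez 11923, chromosome 10, 130268152 to 130280254), which acts in differentiating neurons of the retina, hindbrain and sensory ganglia, stood at 1.92, 1.37 and 1.71 CPM in H4WT. Its level was 6.22, 9.59 and 9.45 CPM in H4K91R and 7.68, 7.97 and 7.73 CPM in H4K91Q. No mutant library came near the H4WT range, and the H4K91Q libraries were closer to each other than the H4K91R ones. Their SD, 2.01% of the mean, was below the 8.04% that counting error alone gives, so this closeness describes only these 3 libraries. Neurod4 rose by 2.39 ± 0.22 in H4K91R (edgeR adjusted p = 2.21e-06) and by 2.30 ± 0.22 in H4K91Q (adjusted p = 3.48e-06), which is 5.25-fold and 4.93-fold.

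Neurod1 (Entrez 18012, chromosome 2, 79452637 to 79456636), a factor of neuronal survival and differentiation that is also needed in the endocrine pancreas, stood at 1.56, 2.22 and 2.2 CPM in H4WT. The values were 1.78, 2.2 and 1.97 CPM in H4K91R and 1.59, 1.54 and 1.52 CPM in H4K91Q. The groups overlapped for H4K91R and, through H4WT replicate 1, for H4K91Q. The log2 difference from H4WT was -0.06 in H4K91R, with a 95% interval from -0.54 to 0.43 (edgeR adjusted p = 0.86), and -0.40 in H4K91Q, with an interval from -0.87 to 0.07 (adjusted p = 0.155). Both intervals lie below the smallest increase estimated for the other tested genes (0.89, Ebf2 in H4K91R), though a fall or a smaller rise is within them. The sign of the H4K91R estimate turned with library size scaling (0.12), with libraries thinned to equal totals (0.12), without H4WT replicate 2 (0.08) and without H4K91R replicate 1 (0.03). In GENCODE vM21, 201 of the 2729 exon bases of Neurod1 are shared with an exon of Cerkl on the same strand, whose counts in the table were 0 to 10 per library, and 154 with Gm26755 on the opposite strand, for which the counting of strand is not given in the sources used here.

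Nhlh1 (Entrez 18071, chromosome 1, 172052292 to 172057596), a bHLH gene switched on in newly formed neurons, showed the largest increase of the 8 in H4K91R. It stood at 0.721, 1 and 0.49 CPM in H4WT, at 6.39, 8.26 and 6.7 CPM in H4K91R and at 3.82, 4.73 and 4.16 CPM in H4K91Q. The 3 groups did not overlap, with H4WT lowest and H4K91R highest. The increase was 3.08 ± 0.24 on the log2 scale in H4K91R (8.48-fold, edgeR adjusted p = 5.56e-07) and 2.34 ± 0.24 in H4K91Q (5.06-fold, adjusted p = 7.93e-06). Its H4WT level came from 6, 27 and 4 counts.

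Nhlh2 (Entrez 18072, chromosome 3, 102010111 to 102015492), the close relative of Nhlh1 that is known for roles in hypothalamic neurons, changed less. Its level was 2.4, 2.56 and 1.96 CPM in H4WT, 5.81, 8.34 and 6.79 CPM in H4K91R and 5.27, 5.33 and 5.21 CPM in H4K91Q. Again the groups did not overlap and H4K91R was highest. Nhlh2 rose by 1.54 ± 0.19 in H4K91R (edgeR adjusted p = 2.13e-05) and by 1.15 ± 0.19 in H4K91Q (adjusted p = 0.00025).

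The Ebf genes had higher CPM than the bHLH genes in every group, and all 3 rose in both mutants. Ebf1 (Entrez 13591, chromosome 11, 44618100 to 45008096) stood at 14.3, 9.3 and 9.8 CPM in H4WT, 47.6, 46.9 and 43.8 CPM in H4K91R and 50.7, 38.4 and 36.7 CPM in H4K91Q. It rose by 2.10 ± 0.16 in H4K91R (4.28-fold, edgeR adjusted p = 4.94e-07) and by 1.96 ± 0.16 in H4K91Q (3.9-fold, adjusted p = 1.22e-06). Replicate 1 was the highest of each group, though in H4K91R by little (47.6 against 46.9 CPM).

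Ebf2 (Entrez 13592, chromosome 14, 67233292 to 67430952) showed the smallest increase among the genes that rose. It stood at 91.5, 61.7 and 83.9 CPM in H4WT, at 152, 154 and 129 CPM in H4K91R and at 180, 135 and 131 CPM in H4K91Q, with no overlap between H4WT and a mutant. The increase was 0.89 ± 0.15 in H4K91R (1.86-fold, edgeR adjusted p = 0.000283) and 0.93 ± 0.15 in H4K91Q (1.9-fold, adjusted p = 0.000217).

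Ebf3 (Entrez 13593, chromosome 7, 137193671 to 137322805) was the most even of the Ebf genes across the H4WT replicates. Its values were 36.7, 32.2 and 37.6 CPM in H4WT, 85.1, 102 and 86.9 CPM in H4K91R and 90.2, 77 and 79 CPM in H4K91Q. It rose by 1.37 ± 0.098 in H4K91R (2.59-fold, edgeR adjusted p = 3.15e-07) and by 1.22 ± 0.097 in H4K91Q (2.33-fold, adjusted p = 1.11e-06). Short stretches of Ebf2 and Ebf3 exons (424 and 355 bases) lie opposite to exons of Gm10860 and Gm45278, and without known strand counting reads of such pairs cannot be told apart.

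Counted over all 9 genes, tested or not, every H4K91R library lay above every H4WT library for 8, and the same held for H4K91Q. Of the 8 tested genes 7 parted that way in each mutant, beside 25% of all tested genes in H4K91R and 27.4% in H4K91Q. Neurog2 and Nhlh1 were tested only through the mutants' libraries, so these counts are a description.

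**Figure D2:**
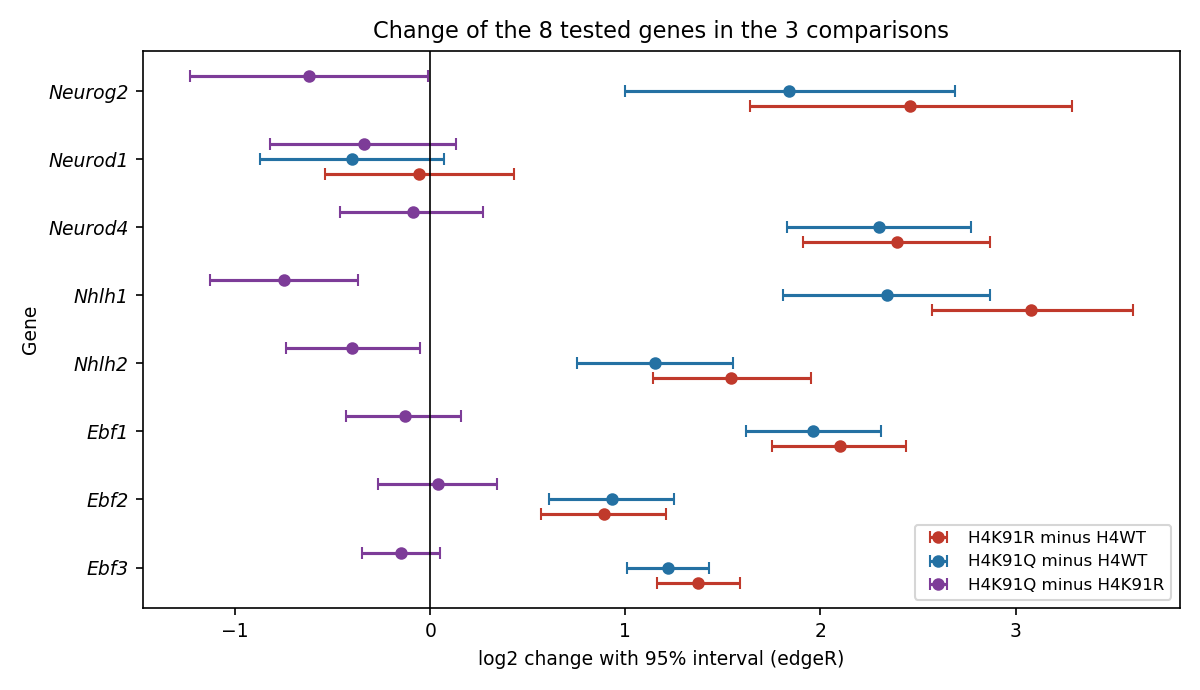
Log2 change (horizontal axis) of the 8 tested genes with its 95% interval, for each mutant against H4WT and for H4K91Q against H4K91R, 3 libraries per group. The intervals of 7 genes lie above 0 for both mutants, Neurod1 spans 0, and between the mutants Nhlh1 lies farthest below 0.

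The mutants were also compared directly, which tests whether their effects relative to the shared H4WT libraries differ. Nhlh1 was lower in H4K91Q than in H4K91R by a log2 difference of -0.75 ± 0.18 (edgeR adjusted p = 0.0301), and it was the only one of the 8 genes called, while 2.78% of all tested genes were lower in H4K91Q and 2.37% higher. That call was lost without H4K91R replicate 2 (adjusted p = 0.136), without H4K91Q replicate 1 (0.117), 2 (0.0665) or 3 (0.0519), and with all libraries thinned to the smallest total (0.175), while the estimate stayed between -0.84 and -0.60. Nhlh2 and Neurog2 had log2 differences of -0.40 (95% interval -0.74 to -0.05) and -0.62 (-1.23 to -0.01), with unadjusted p = 0.0278 and 0.0476 and adjusted p = 0.166 and 0.218 (edgeR). The difference was -0.34 for Neurod1 (interval -0.82 to 0.13), -0.09 for Neurod4 (-0.46 to 0.27), -0.13 for Ebf1 (-0.43 to 0.16), 0.04 for Ebf2 (-0.27 to 0.34) and -0.15 for Ebf3 (-0.35 to 0.05). Of the 8 estimates 7 were below 0, as a description, and all H4K91Q libraries lay below all H4K91R libraries for Neurod1, Nhlh1, Nhlh2 and the untested Neurog1, where 12.8% of all tested genes parted that way.

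To compare levels between genes, CPM was divided by the length of the gene's merged exons in GENCODE vM21, which ignores which isoforms are present. The order was also read with the longest and with the shortest annotated coding transcript of each gene, an alternative added after the data were seen; only Nhlh2 and the Ebf genes have more than 1. Ebf2 was highest in every group, at 11.4 ± 2.23 CPM per kb in H4WT, 20.9 ± 1.95 in H4K91R and 21.5 ± 3.91 in H4K91Q (SD, n = 3). Ebf3 and Ebf1 came next in every group, with any of these lengths, at 3.85 and 1.14 CPM per kb in H4WT, 9.89 and 4.72 in H4K91R and 8.9 and 4.3 in H4K91Q. The Ebf genes together made up 88.1% of the summed level per kb of the 9 genes in H4WT, 80.2% in H4K91R and 84.2% in H4K91Q.

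The order changed below them. Genes are said to overlap here where their ranges of mean ± 1 SD do, which is not a test. In H4K91Q some SDs were below what counting error alone gives, so a lack of overlap there is not firm. As a percent of the mean the SD was 1.1% for Nhlh2 and 2.01% for Neurod4, against counting errors of 9.78% and 8.04%. In H4WT Neurod1 was the highest bHLH gene at 0.732 ± 0.138 CPM per kb and overlapped Ebf1. Neurod4 (0.499), Nhlh2 (0.426), Nhlh1 (0.299) and Neurog2 (0.183) followed, and from Neurod4 to Neurog2 each gene overlapped its neighbour. With the longest transcript Nhlh2 stood at 0.585 CPM per kb in H4WT, above Neurod4, and with the shortest at 0.871, above Neurod1. In H4K91R Nhlh1 (2.89 ± 0.407) and Neurod4 (2.52 ± 0.571) led and overlapped, and Neurod1 (0.727 ± 0.0768) came after Nhlh2 (1.29) and Neurog2 (0.982), overlapping the latter. In H4K91Q Neurod4 (2.33 ± 0.0468) stood above Nhlh1 (1.72 ± 0.188), and Neurog2 (0.648 ± 0.134) and Neurod1 (0.569 ± 0.0118) overlapped. With the shortest transcript Nhlh2 stood at 2.64 CPM per kb in H4K91R, above Neurod4, and at 1.99 in H4K91Q, above Nhlh1. Neurog1 was the lowest in every group, from 0.0768 in H4WT to 0.351 CPM per kb in H4K91R.

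**Figure D3:**
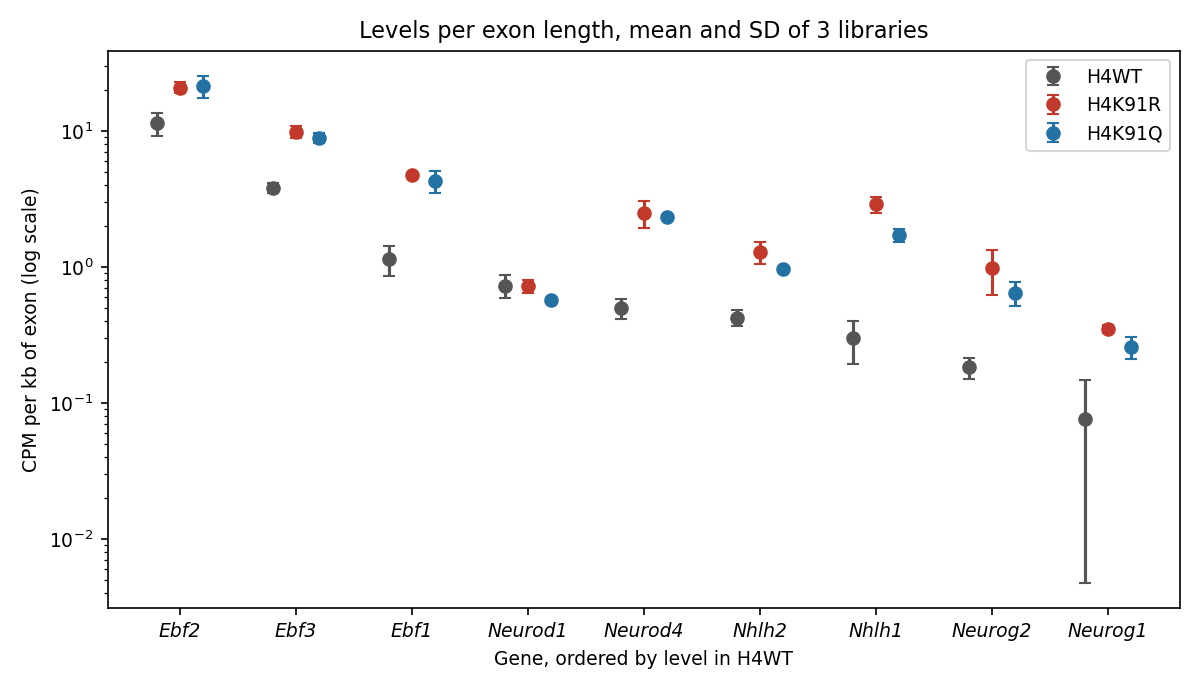
CPM per kb of merged exon (vertical axis, log scale) for the 9 genes, ordered by their H4WT level; points are means and whiskers SD of 3 libraries per group. Ebf2, Ebf3 and Ebf1 lead in every group, while Neurod1 goes from the highest bHLH gene in H4WT (with merged exons or the longest transcript) to the lowest but Neurog1 in the mutants.

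Ratios within a library do not depend on the scaling between libraries. Per exon length, the Nhlh1 level was 0.66, 0.86 and 0.55 of the Nhlh2 level in the H4WT libraries, 2.42, 2.18 and 2.17 times it in H4K91R and 1.59, 1.95 and 1.75 times it in H4K91Q. The merged exons of Nhlh2, 5417 bases, span its whole gene and are longer than any single transcript. With its longest coding transcript (3943 bases) the ratio was 0.4 to 0.626 in H4WT, 1.58 to 1.76 in H4K91R and 1.16 to 1.42 in H4K91Q. With the shortest (2647 bases) it was 0.269 to 0.42, 1.06 to 1.18 and 0.777 to 0.954. Nhlh1 was thus the lower of the pair in H4WT and the higher in H4K91R with each of these lengths, while in H4K91Q the order turned with the shortest. The ratio was higher in every mutant library than in every H4WT library with each length. Neurod4 stood at 1, 0.503 and 0.635 times the Neurod1 level in H4WT, at 2.84, 3.55 and 3.92 times in H4K91R and at 3.95, 4.21 and 4.14 times in H4K91Q. Ebf1 rose relative to Ebf2 without passing it, from 0.111, 0.107 and 0.0829 of its level in H4WT to 0.222, 0.217 and 0.24 in H4K91R and to 0.2, 0.201 and 0.199 in H4K91Q.

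Profiles over the 9 libraries were compared by the root mean square distance between gene-centred log2 CPM values, a description in which the group differences weigh most. Among the members Nhlh2 and Ebf3 were closest (0.191), followed by Ebf2 and Ebf3 (0.233) and by Neurod4 and Ebf1 (0.262), and Neurod1 and Nhlh1 were farthest apart (1.40). Among the 13286 other genes of at least 1 CPM, the nearest to Nhlh2 were the Notch target Nrarp (0.095) and the Notch ligand Dll1 (0.096). The nearest to Nhlh1 were Scrt2, a zinc finger repressor of differentiating neurons (0.158), and Olfm3 (0.16). Neurog2 was nearest to the long noncoding RNA Snhg11 (0.174) and to Cyp46a1, the cholesterol 24-hydroxylase of neurons (0.19), and Neurod4 to Osr2 (0.108) and Peli2 (0.167). Peli2 was also the nearest to Ebf1 (0.104), with Slc14a1 next (0.162). Ebf2 lay nearest to Emx2 (0.099) and Fibin (0.111), Ebf3 to Nkd2 (0.118) and Vstm4 (0.119), and the flat profile of Neurod1 to Neu3 (0.092) and Tprn (0.097).

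Other genes of the pathway were taken from lists chosen with earlier results of these data known. Their counts are a description and stand beside those over all genes given above. Of 15 other neural bHLH and Ebf genes, 9 were tested, of which 6 rose and 1 fell in H4K91R and 5 rose and 0 fell in H4K91Q, with median log2 changes of 1.62 and 1.10 (-0.03 and 0.013 over all tested genes). Bhlhe22, a factor of postmitotic neurons, rose by 1.67 and 1.41, and Neurod6, of cortical neurons, by 2.83 and 2.13. Atoh8 was the gene that fell in H4K91R (-0.48, edgeR adjusted p = 0.0184, named after its value was seen), a call that ended with library size scaling. Ptf1a had 0 counts in all 9 libraries.

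All 3 E protein genes, which encode the partners that bHLH factors need to bind DNA, rose in both mutants by less than the bHLH genes that rose. They were already abundant in H4WT, at 155 ± 11.6 CPM for Tcf12, 153 ± 6.9 for Tcf3 and 115 ± 29.9 for Tcf4. The log2 increases in H4K91R and H4K91Q were 0.70 ± 0.098 and 0.53 ± 0.098 for Tcf12, 0.32 ± 0.062 and 0.21 ± 0.062 for Tcf3, and 0.75 ± 0.17 and 0.46 ± 0.17 for Tcf4. The highest adjusted p of these 6 was 0.0353, for Tcf4 in H4K91Q (edgeR).

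Inhibitors of these factors did not move as a block. Of 17 listed, 15 were tested, of which 9 rose and 1 fell in H4K91R and 7 rose and 1 fell in H4K91Q, with median log2 changes of 0.40 and 0.22. Hes1, a repressor of proneural genes, stood at 179, 158 and 151 CPM in H4WT, 66.4, 66.5 and 77 CPM in H4K91R and 63.1, 65.5 and 63.6 CPM in H4K91Q. It was the gene that fell in both, by a log2 change of -1.22 ± 0.082 and -1.34 ± 0.082 (edgeR adjusted p = 2.41e-07 and 2.3e-07). Hes5, a Notch target with a like role in neural progenitors, went up, from 4.81, 4.56 and 3.18 CPM in H4WT to 25.4, 22.1 and 23.3 in H4K91R and 10.8, 10 and 13.6 in H4K91Q, by 2.46 ± 0.16 and 1.42 ± 0.16 (adjusted p = 1.77e-07 and 1.65e-05). The Id genes (named after their values were seen) were split. Id1 and Id3 had log2 differences of -0.16 and -0.15 in H4K91R and -0.12 and -0.10 in H4K91Q, with adjusted p of at least 0.106. Id2 and Id4 rose, by 0.55 and 1.32 in H4K91R and by 0.63 and 0.93 in H4K91Q (edgeR adjusted p of at most 0.000143). Cbfa2t3, a corepressor that bHLH factors both induce and bind, rose by 1.97 ± 0.14 and 1.54 ± 0.14, and Zfp423, a zinc finger protein that binds Ebf factors, by 1.04 ± 0.11 and 0.97 ± 0.11. The list also holds Hes6, which is known to counteract Hes1.

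Of 26 genes known as targets of proneural factors, some of them also in the lists of inhibitors and of other bHLH genes, 25 were tested. In H4K91R 21 rose and 3 fell, and in H4K91Q 19 rose and 2 fell, with median log2 changes of 1.80 and 1.2. The Notch ligand Dll1 (named through its nearness to Nhlh2) stood at 10.6, 11.6 and 8.57 CPM in H4WT, 30.4, 36.7 and 30.2 in H4K91R and 21.7, 24.6 and 24.8 in H4K91Q. The neuronal zinc finger genes Myt1, Scrt1 and Scrt2 rose by 2.93, 2.61 and 2.73 in H4K91R and by 2.52, 1.64 and 1.99 in H4K91Q. Btg2, an antiproliferative gene of neurogenic divisions and also a p53 target, fell by 0.88 and 0.82 on the log2 scale. The others that fell, named after their values were seen, were Gadd45g in both mutants (-0.87 and -0.92) and Eomes in H4K91R (-1.36). Between the mutants 1 of the 25 was higher in H4K91Q and 7 were lower.

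**Figure D4:**
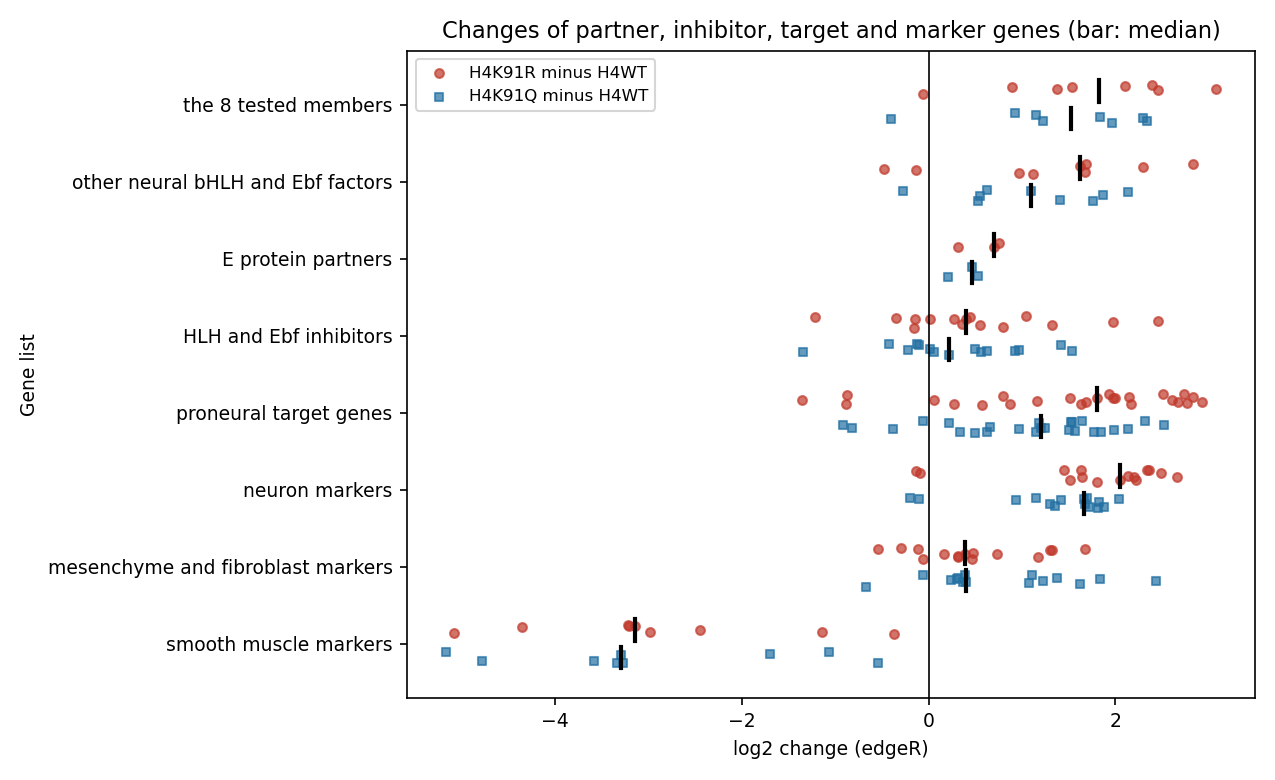
Log2 change relative to H4WT (horizontal axis) of the tested members and of 7 gene lists, H4K91R as circles and H4K91Q as squares; each point is a gene and black bars are medians. The medians of the proneural targets and neuron markers lie between 1.2 and 2.05, the inhibitors spread around 0.40 and 0.22, and the smooth muscle markers lie below 0.

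Markers of several cell types moved with these genes, and their part in the results was not tested. Of 15 neuron markers 13 rose in each mutant and 0 fell in H4K91R, with median log2 changes of 2.05 and 1.66. Dcx, a microtubule protein of migrating young neurons, rose by 2.36 and 1.88, and Elavl3, a neuronal RNA-binding protein, by 2.66 and 2.04. Nefm fell in H4K91Q (-0.20, adjusted p = 0.0472, named after its value was seen), a call that ended with RLE and with library size scaling. Their summed level was 456 to 568 CPM in H4WT, 1351 to 1665 in H4K91R and 1089 to 1191 in H4K91Q. Nhlh1, Neurog2, Neurod4 and Ebf1 had larger log2 increases than the neuron marker median in both mutants, and Nhlh2, Ebf2 and Ebf3 had smaller ones, a comparison of estimates with no test. Of 12 neural progenitor markers 11 rose and 0 fell in H4K91R and 10 rose and 1 fell in H4K91Q. Among the risen were the radial glia gene Fabp7 (2.88 and 2.36), and Sox2 (1.86 and 2.02). Nes, at 168 CPM in H4WT, was the marker that fell in H4K91Q (-0.49, edgeR adjusted p = 0.00299, named after its value was seen). In H4K91R Nes was not called (-0.12, adjusted p = 0.42). The 12 markers summed to 324 to 384 CPM in H4WT, 813 to 891 in H4K91R and 583 to 678 in H4K91Q.

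Because Ebf genes are also expressed in mesenchyme and fat cell precursors, markers of these were read beside them. The 15 mesenchyme and fibroblast markers summed to 6164 to 7157 CPM in H4WT, 7028 to 7862 in H4K91R and 7656 to 8292 in H4K91Q, and 8 and 9 of them rose while Pdgfrb fell in both, a call that ended in H4K91R with library size scaling. Meox2 and Prrx2 rose by 1.67 and 1.32 in H4K91R and by 1.84 and 1.62 in H4K91Q. Of 12 adipocyte lineage markers, 8 were tested and 6 and 5 rose, among them Lpl, the lipoprotein lipase (1.60 and 1.96). The 4 untested ones, Fabp4, Adipoq, Plin1 and Ucp1 (named after their values were seen), stayed under 1 CPM in every library, and Ucp1 was at 0 in all 9. The 12 markers summed to 574 to 664 CPM in H4WT, 767 to 853 in H4K91R and 785 to 878 in H4K91Q. Most of this was Pdgfra (524 CPM in H4WT), which the mesenchyme list holds too. Smooth muscle markers fell, 9 of 9 tested in each mutant (8 in H4K91R with library size scaling), among them the contractile genes Acta2 (-2.98 and -3.34) and Cnn1 (-3.22 and -3.58), from a sum of 4101 to 4938 CPM in H4WT to 499 to 785 in H4K91R and 475 to 536 in H4K91Q.

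B cell markers were near 0, with 9 of 10 under 1 CPM in every library. Of 11 endocrine pancreas markers 7 stayed under 1 CPM in every library and Ins1 and Ins2 were at 0, and of 11 retina markers 8 stayed under 1 CPM and Rcvrn was at 0. In the endocrine list 4 tested genes rose in both mutants, among them Chga by 2.18 and 1.65. Of the 3 retina genes tested 2 rose and 1 fell in H4K91R and all 3 rose in H4K91Q, and Otx2, also a gene of early epiblast, was the one that went from -1.84 to 2.05. Of 14 sensory neuron and placode markers 13 were tested, and 8 rose and 1, Six4, fell in each mutant, in H4K91Q not with library size scaling, with Pou4f1, a factor of sensory neurons, at 2.24 ± 0.19 and 2.03 ± 0.19. Of 11 pluripotency markers 0 rose and 9 fell in H4K91R, and 8 rose and 1 fell in H4K91Q (Klf4, -0.29, a call that ended with library size scaling), with Pou5f1 at -1.42 and 1.24 and a summed level of 302 to 389 CPM in H4WT, 193 to 220 in H4K91R and 333 to 486 in H4K91Q.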

How the data were processed

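The authors deposited expected counts, whole numbers for each gene, and Salmon 0.8.2, the genome build mm10 and DESeq2 (no version or role) are named, per the submitters' processing notes. How reads were trimmed, annotated and counted by strand, and how values were rounded, is not given in the sources used here. Reads fitting more than 1 gene are shared out by Salmon, which can blur close relatives. Of 24100 Entrez IDs, 24045 matched a symbol in RefSeq's gene table, whose assembly, GRCm38.p6, is a patched mm10; positions come from it.

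Genes were filtered with filterByExpr by group (minimum count 10) in edgeR 4.0.16 (R 4.3.3), which kept 14761. Libraries were scaled by TMM, and all 9 libraries entered a single quasi-likelihood fit by group (common biological coefficient of variation 8.82%). Tests were two-sided and p-values were adjusted by Benjamini-Hochberg over all tested genes, with calls below 0.05. SE is the log2 change divided by the square root of the F statistic. The test was tried on simulated counts of each mutant with H4WT, without the other mutant's libraries. In each simulation 200 genes were changed, while the H4K91R data gave 3092 higher and 3705 lower calls. With so few changed genes the adjusted p cutoff is stricter, so the shares recovered do not carry over to the data. Of genes changed 2-fold the test recovered 91.3% for H4K91R and 81.6% for H4K91Q in the simulation. Of those changed 1.2-fold it recovered 2.27% and 2.08%. It also called 17 and 11 unchanged genes, among 13987 and 14562 tested. Deviations from the group means correlated over 0.1 between same-numbered libraries for all 3 pairs of H4WT with H4K91Q (0.141 to 0.198), but not for all pairs of H4K91R with either group. The labels do not say what a number marks, so the fit without a block was kept.

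Alternatives were RLE and library size scaling, no filter, the compared groups only, a replicate block, each library left out, thinning to the smallest total, limma-voom (limma 3.58.1) and DESeq2 1.42.0, and, added after seeing the data, other gene lengths. The members, the 15 lists (members included) and the tests were chosen with earlier results of these data known. Genes named outside the members were the called list members with the smallest adjusted p (up to 3 per list and mutant, mean of at least 1 CPM) and the 2 nearest profiles per tested member, unless said otherwise. Values of some genes that this rule names are not reported here.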

Additional observations from a re-analysis of the deposited data

Results flagged for a closer look

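The members, other neural bHLH and Ebf genes, partners, inhibitors and targets were searched for effects that differ between the mutants. For 10 genes they did in the direct test of H4K91Q against H4K91R (edgeR, adjusted p below 0.05 over all tested genes, 3 libraries per group). These were 1 of the 8 tested members, 1 of 15 tested inhibitors and 8 of 25 tested targets, 1 higher and 7 lower. None were among the 3 E proteins or the 9 tested other neural bHLH and Ebf genes. Of the latter 2 were lower with RLE scaling and 1 with library size scaling. Over all tested genes 2.37% were higher and 2.78% lower in H4K91Q. The log2 difference, H4K91Q minus H4K91R, was -0.75 for Nhlh1, a call lost in 5 of 17 alternative fits; the other 9 genes were not refitted one by one. It was -1.05 for Hes5, a Notch target of neural progenitors. Among the proneural targets it was -0.45 for Dll1 and -0.74 for Dll3, both Notch ligands, and -0.60 for Insm1, a zinc finger factor of delaminating progenitors. It was -0.59 for the neuronal splicing regulator Srrm4, -0.82 for the Myt1 relative St18, -0.97 for Scrt1 and -0.74 for Scrt2. Eomes, a T-box factor of cortical intermediate progenitors and of early mesendoderm, went the other way at 1.30, with 5.06 CPM in H4WT, 1.94 in H4K91R and 4.95 in H4K91Q.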

How the results depend on the processing

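The 7 increases in each mutant relative to H4WT kept their direction and stayed called in all 17 alternative fits, and Neurod1 stayed uncalled in all of them. Their log2 changes ranged from 0.73 (lowest, Ebf2) to 3.54 (highest, Nhlh1) in H4K91R and from 0.76 to 2.78 in H4K91Q. Between the mutants the number of genes called was 1 with all libraries. With 1 library left out it ranged from 0 to 1, and with libraries thinned to equal totals it was 0, where fewer counts are read. The numbers of called list members stayed within 1.5 times in 158 of 168 recounts under RLE and library size scaling, and the other 10 went from 1 to 0, from 0 to 1 or 2, or from 1 to 2. Same-numbered libraries' deviations from their group means correlated at -0.163 to 0.198, over 0.1 in 5 of 9 pairs, which include all 3 of H4WT with H4K91Q, and 3 of 9 libraries were closest to their own number in both other groups. With the replicate block 7, 7 and 1 genes were called in the 3 contrasts and 7 in the joint test over the 3 groups, the same numbers as without it, and no call of the 8 genes changed. Low counts limit Neurog1, Neurog2 and, in H4WT, Nhlh1.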
